A study of Mus musculus with 4 samples.

Results

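A set of 9 genes of the RNA-sensing and type I interferon signalling pathway were followed across 4 whole-genome arrays of mouse embryonic fibroblasts (MEFs). They are the cytosolic RNA sensors Ddx58, Ifih1 and Dhx58, the endosomal sensor Tlr3, the interferon regulatory factors Irf1, Irf3, Irf7 and Irf9, and the signal transducer Stat2. The list of members was drawn up with earlier results of these data known, so the counts below are no blind result. Members were matched by gene symbol, and every probe that carries one of these symbols was read. This gave 17 probes for 9 genes out of 45281 probes and 30872 symbols on the array. All 9 genes were detected (detection p-value below 0.01) on at least 1 array and 6 of them on all 4. Tlr3 was kept only through its signal on the parental array, and Ifih1 and Dhx58 were at background on 1 array.

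The study asked how Rb, the retinoblastoma protein that restrains cell cycle genes, shapes transcription during a DNA damage response, and which phosphorylation state of Rb does so. All cells were Rb f/f MEFs of FVB;129 strain, in which Cre recombinase removes the floxed Rb gene. Parental MEFs received control solution in place of TAT-Cre, a cell-permeable Cre protein, whereas the other 3 cultures received TAT-Cre in 2 treatments of 1 h, 3 h apart. One of these, WT Rb-HA (here WT MEFs), was also infected with a retrovirus for wild type Rb, and another, ΔCdk Rb-HA (dCDK in the labels, here ΔCdk MEFs), with one for a phospho-mutant that Cdks cannot phosphorylate. The Rb-deleted MEFs were given media alone in place of retrovirus. All 4 cultures were contact arrested, released for 4 hr and then treated with doxorubicin, a DNA-damaging drug, for 3 hr, so no array shows cells without it. The arrest, release and drug are not in the labels and were taken from the description of the experiment. Each condition had 1 array, so differences between conditions could not be set against any spread between cultures, and none was tested. The spread given with a value is the bead standard error, the error over the beads of a probe on the same array, which leaves out all variation between cultures.

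Cytosolic RNA is recognised by the helicases RIG-I (Ddx58) and MDA5 (Ifih1), which signal through the adaptor Mavs to the kinase Tbk1 and the transcription factors Irf3 and Irf7. These factors switch on type I interferon genes. Secreted interferon then binds its receptor, and the kinases Jak1 and Tyk2 activate STAT proteins, Stat2 among them, that assemble with Irf9 into the complex ISGF3. ISGF3 binds the interferon-stimulated response element (ISRE) in front of a large set of genes. Several of those genes encode the sensors, Irf7, Stat2 and Irf9 themselves, whereas Irf3 is known as a constitutively made factor.

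Promoter sequence is shown for the 4 members with a motif match, because an ISRE is what ISGF3 reads and a gamma-activated site (GAS) is what STAT dimers read. RefSeq promoters (assembly GRCm38.p6, 250 bases before to 50 after each start) were matched by symbol for 8 of the 9 members, all but Dhx58. The ISRE core was searched on both strands as TTTC and TTTC with any 2 bases between (its reverse complement is GAAA, 2 bases, GAAA) and the GAS, a palindrome, as TTCNNNGAA. Capitals mark the match, and each line runs 5′ to 3′ on the strand of the gene.
Stat2, chr10:128270248-128270337, plus strand, bases 250 to 161 before the start: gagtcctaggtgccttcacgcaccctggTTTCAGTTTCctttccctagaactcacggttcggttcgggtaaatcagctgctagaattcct
Ddx58, chr4:40239806-40239885, minus strand, ending 20 bases after the start: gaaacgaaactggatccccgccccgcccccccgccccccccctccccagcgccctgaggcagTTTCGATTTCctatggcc
Ifih1, chr2:62646206-62646235, minus strand, bases 21 to 50 after the start, with the core on the opposite strand: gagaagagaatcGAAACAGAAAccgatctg
Irf1, chr11:53769874-53769963, plus strand, GAS: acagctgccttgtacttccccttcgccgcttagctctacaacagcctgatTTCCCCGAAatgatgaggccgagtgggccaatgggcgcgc

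The ISRE core was found in 3 of 8 members (37.5%), compared to 1079 of 27025 genes with a promoter (3.99%). In the list of 45 interferon-induced effector genes, 18 of 37 with a promoter held it (48.6%). The GAS was found in 1 of 8 members (12.5%) and in 9.55% of all genes, and no member held both motifs. A match describes these letters in this window only, and its absence from the windows of Irf7, Irf9, Irf3 and Tlr3 says nothing about binding elsewhere.

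Each probe is an oligonucleotide of 50 bases. Dhx58 and Irf1 each have a pair of probes that lie almost on top of each other, so their agreement is no independent reading of the gene. The pairs are printed with the shared bases in capitals, 44 for Dhx58 and 49 for Irf1.
Dhx58, transcript position 2040: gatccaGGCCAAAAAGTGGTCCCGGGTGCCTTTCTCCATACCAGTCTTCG
Dhx58, transcript position 2046: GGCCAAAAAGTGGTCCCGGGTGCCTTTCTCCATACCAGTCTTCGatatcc
Irf1, transcript position 329: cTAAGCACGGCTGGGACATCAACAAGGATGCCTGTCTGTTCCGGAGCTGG
Irf1, transcript position 331: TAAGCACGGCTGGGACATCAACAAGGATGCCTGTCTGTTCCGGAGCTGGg

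The arrays were alike in overall signal. Mean intensity was 335.7 to 345.8, the median intensity of probes at background was 35.9 to 37.0, and 15950 to 16740 probes were detected per array. Rb1, the deleted gene, read 542.7 in parental MEFs and 160.5 to 180.9 on the other 3 arrays at its brighter probe (transcript position 4421). The sources used here do not say whether that probe can detect the retroviral transcript. All 10 fibroblast markers were detected on every array. Of 18 leukocyte markers, 14 were detected on the parental and Rb-deleted arrays and 13 on the WT and ΔCdk arrays, and Ptprc (CD45), Itgam, Fcer1g and Lyz1 were at background on all 4. None of 4 endothelial markers was detected, and 2 or 3 of 5 epithelial markers were.

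Compared to parental MEFs, 6 of these genes (Ddx58, Ifih1, Dhx58, Irf7, Irf9 and Stat2) were lower on all 3 TAT-Cre arrays, each with its lowest value in ΔCdk MEFs, while the brightest probe of Irf3 stayed within 1.6-fold of parental. A gene was counted as lower or higher when its normalized ratio passed 1.6-fold, the study's filter, which is 0.68 in log2 units. Of the 9 members, those 6 were lower in Rb-deleted MEFs, where 2.98% of 12616 analysed genes were. In WT MEFs the count was 7 of 9, against 2.46% of all genes, with Tlr3 added. In ΔCdk MEFs it was 8 of 9, against 3.3% of all genes, with Tlr3 and Irf1 added. No member was higher in any of the 3 comparisons, where 2.14%, 0.888% and 2.58% of all genes were. The median log2 ratio of the 9 members was -1.05 in Rb-deleted, -1.10 in WT and -2.08 in ΔCdk MEFs, beside all-gene medians of 0.02, 0.01 and -0.01. The 3 comparisons share the parental array, so its own error enters all of them.

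**Figure D1:**
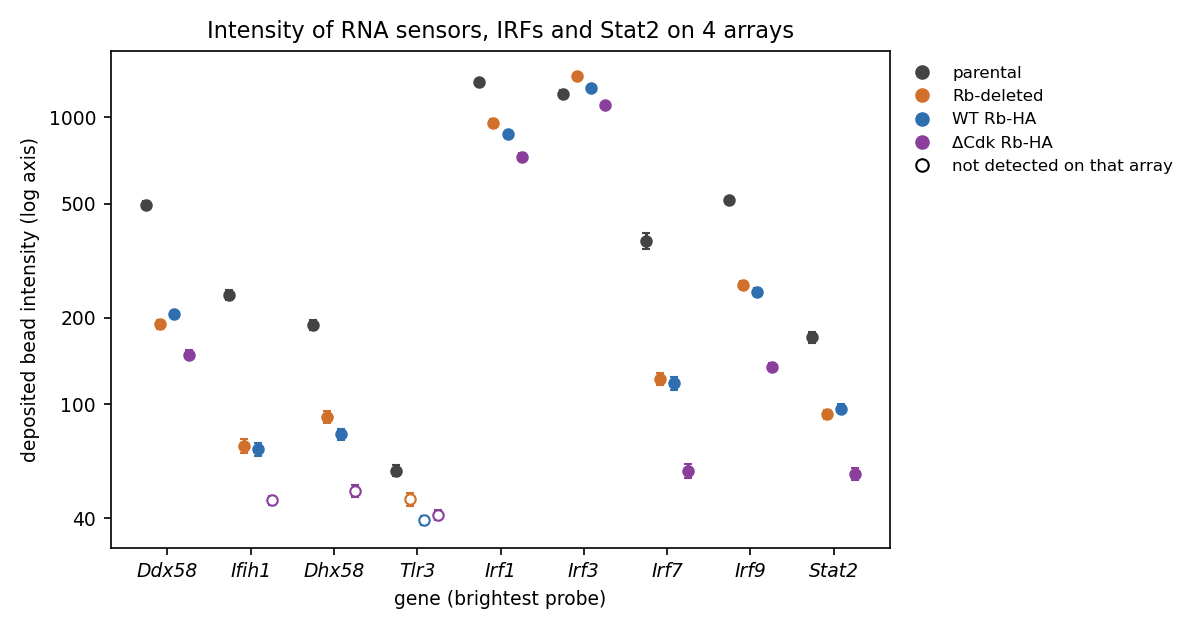
Deposited intensity of the brightest probe of each of the 9 genes on the 4 arrays (log axis), with bars of 1 bead standard error and open circles where the probe was not detected. Ifih1 goes from 240.2 in parental MEFs to 46.3 in ΔCdk MEFs and Irf7 from 371.7 to 58.6, while Irf3 stays between 1103 and 1388.

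Among the sensors, Ddx58 (RIG-I, on chromosome 4), which recognises RNA with a 5′ triphosphate, had an intensity of 494.3 in parental, 190.2 in Rb-deleted, 205.6 in WT and 149.0 in ΔCdk MEFs. It was highest in parental MEFs by a wide margin, and the 3 TAT-Cre arrays lay close together. On the normalized scale it was 2.73-fold lower in Rb-deleted MEFs (log2 ratio -1.45, bead standard error 0.08), 2.50-fold lower in WT MEFs (-1.32, 0.07) and 3.58-fold lower in ΔCdk MEFs (-1.84, 0.08).

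Ifih1 (MDA5, chromosome 2), the sensor of long double-stranded RNA, differed by more. Its intensity was 240.2 in parental, 71.6 in Rb-deleted, 69.6 in WT and 46.3 in ΔCdk MEFs, the last not above background (detection p-value 0.104). Normalized ratios to parental were -2.12 in Rb-deleted (log2, bead standard error 0.14) and -2.26 in WT MEFs (0.13), which ranked 18 and 14 from the lowest of 12616 genes. In ΔCdk MEFs it was at least 6.68-fold lower. Such a bound sets the brighter array against the dimmest detected signal on the other array, or the dim probe's own value where that is higher.

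Dhx58 (LGP2, chromosome 11), a helicase without a signalling domain that modulates the other sensors, was read by the pair of overlapping probes. The brighter one, at position 2040, had an intensity of 189.2 in parental, 90.4 in Rb-deleted, 78.5 in WT and 49.9 in ΔCdk MEFs (detection p-value 0.0513, not detected). The other probe gave 139.5, 71.0, 59.2 and 45.5 in the same order of arrays. Both probes thus placed the 4 arrays in the same order. At the brighter probe Dhx58 was 2.39-fold lower in Rb-deleted and 3.04-fold lower in WT MEFs (log2 ratios -1.26 and -1.61, bead standard error 0.11 each), and at least 5.13-fold lower in ΔCdk MEFs.

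Tlr3 (chromosome 8), the endosomal receptor for double-stranded RNA, sat at the edge of detection. Its intensity was 58.7 in parental MEFs, and 46.6, 39.4 and 41.1 on the Rb-deleted, WT and ΔCdk arrays, where it was not detected. The measured log2 ratios of -0.53, -0.82 and -0.75 therefore allow only that Tlr3 was at least 1.14-fold, 1.05-fold and 1.10-fold lower. Its counts past 1.6-fold rest on values at background.

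**Figure D2:**
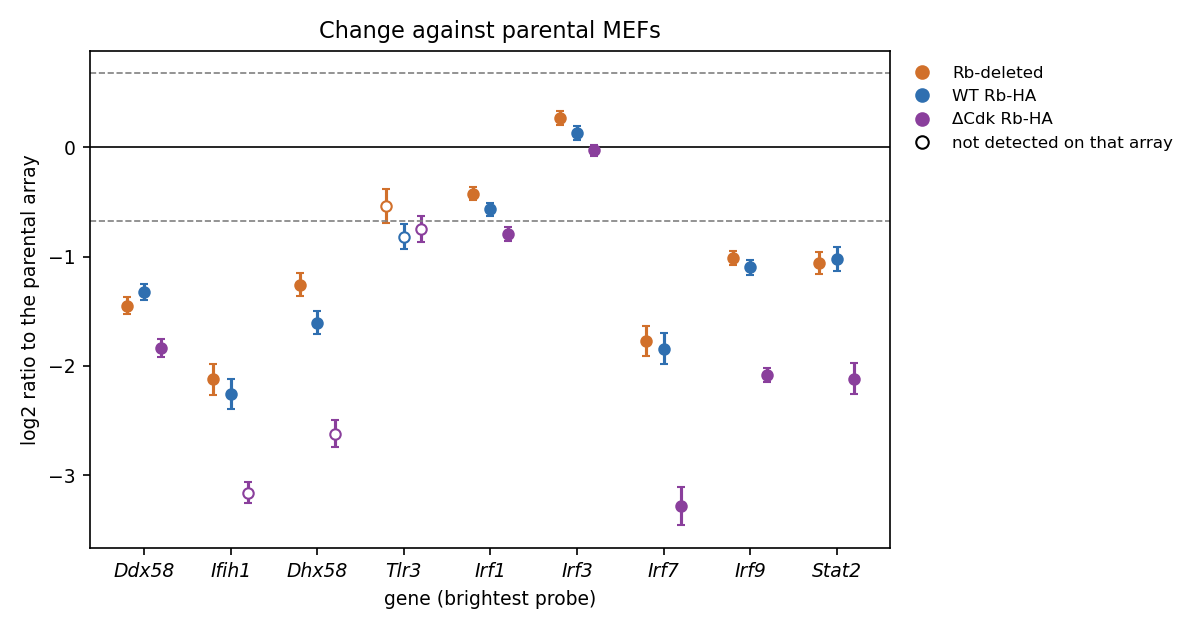
Log2 ratio of each gene's brightest probe to the parental array in Rb-deleted, WT and ΔCdk MEFs, with bars of 1 bead standard error, dashed lines at 1.6-fold and open circles where the probe was not detected on the TAT-Cre array. The ΔCdk points lie below the others for Irf7 (-3.29), Irf9 (-2.08) and Stat2 (-2.12), and Irf3 lies within 1.6-fold on all 3 arrays.

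The 4 interferon regulatory factors behaved unequally. Irf3 (chromosome 7), which acts directly downstream of the sensors, had an intensity of 1208 in parental, 1388 in Rb-deleted, 1267 in WT and 1103 in ΔCdk MEFs at its brightest probe. The 4 arrays lay within a narrow band, and the log2 ratios to parental were 0.27, 0.13 and -0.03 (bead standard errors 0.05 to 0.06). Its other 2 probes were dimmer, with 236.6 and 85.9 in parental MEFs, and none of the 3 passed 1.6-fold in any comparison with parental. The probe at position 955 read higher than parental on all 3 TAT-Cre arrays (log2 ratios 0.49, 0.41 and 0.28). In ΔCdk MEFs the 3 probes had ratios of both signs, from -0.23 to 0.28.

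Irf7 (chromosome 7), which amplifies interferon production and is itself interferon-induced, was lower on all 3 TAT-Cre arrays. Its intensity was 371.7 in parental (bead standard error 24.4), 122.6 in Rb-deleted (6.1), 118.4 in WT (6.3) and 58.6 in ΔCdk MEFs (3.3). The parental array stood far above, the Rb-deleted and WT arrays were level, and the ΔCdk array was the dimmest, though still above background. Irf7 was 3.41-fold, 3.58-fold and 9.75-fold lower than in parental MEFs (log2 ratios -1.77, -1.84 and -3.29, bead standard errors 0.14, 0.14 and 0.17), and in ΔCdk MEFs it ranked 12 from the lowest of 12616 genes. Under the alternative settings described below, its log2 ratio in ΔCdk MEFs ranged from -4.04 (offset of 1) to -2.44 (offset of 50).

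Irf9 (chromosome 14), the DNA-binding subunit of ISGF3, had an intensity of 516.5 in parental, 260.3 in Rb-deleted, 246.6 in WT and 135.1 in ΔCdk MEFs. The arrays stood in the same order as for Irf7, with smaller differences of 2.02-fold, 2.14-fold and 4.23-fold (bead standard errors 0.06 to 0.07 in log2 units). A second, dimmer probe at position 180 gave 150, 97.6, 107.9 and 67.1, again highest in parental and lowest in ΔCdk MEFs, but its log2 ratio in WT MEFs, -0.58, did not pass 1.6-fold.

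Irf1 (chromosome 11), an interferon-induced factor and tumour suppressor, differed less than Irf7 and Irf9. At the brightest probe (position 1985) its intensity was 1324 in parental, 954.8 in Rb-deleted, 871.3 in WT and 725.7 in ΔCdk MEFs. The log2 ratios of -0.42, -0.57 and -0.79 (bead standard error 0.06 each) passed 1.6-fold in ΔCdk MEFs only. The probe at position 1708 ran in parallel (492.2, 357.8, 331.9 and 276.5). The overlapping pair at positions 329 and 331 was dimmer, with log2 ratios of -0.54, -0.45 and -0.58 at position 331 and -0.34, -0.18 and -0.28 at position 329, although these probes share 49 of 50 bases, and the probe at position 234 was at background on all 4 arrays.

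Stat2 (chromosome 10), the STAT that binds Irf9 in ISGF3, had an intensity of 171.1 in parental, 92.5 in Rb-deleted, 96.6 in WT and 57.3 in ΔCdk MEFs. It was highest in parental and lowest in ΔCdk MEFs with the other arrays level between, at log2 ratios to parental of -1.05 (bead standard error 0.10), -1.02 (0.11) and -2.12 (0.14).

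**Figure D3:**
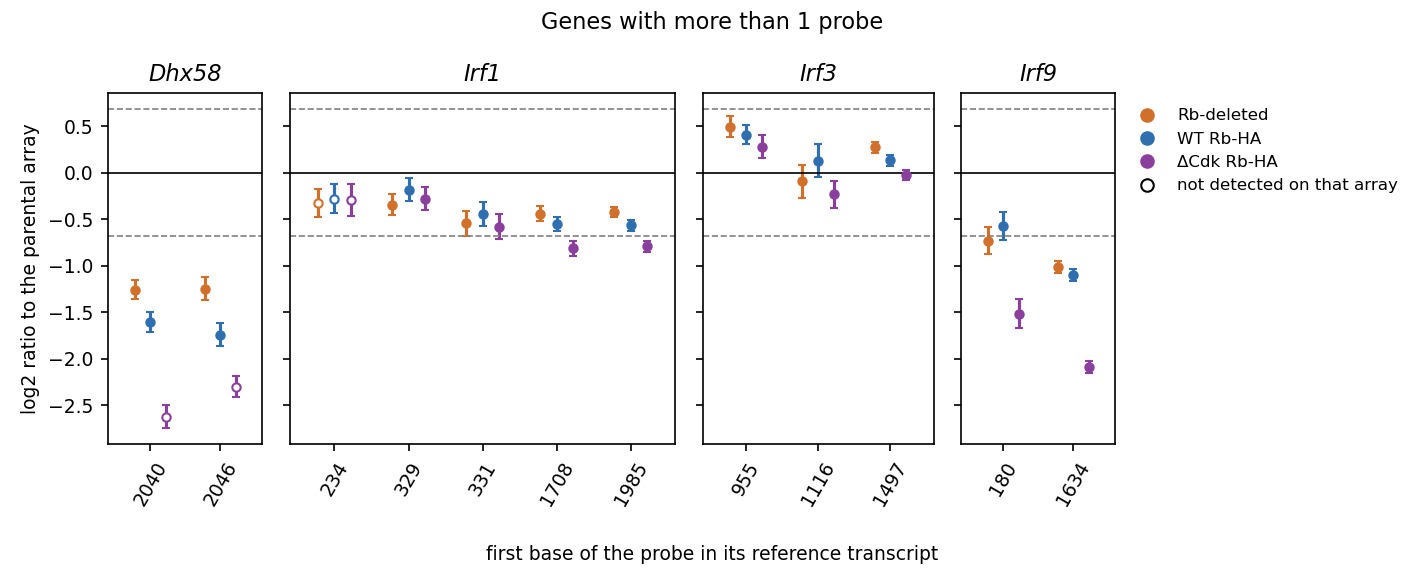
Log2 ratio to the parental array for every probe of the 4 members with more than 1 probe, by the first base of the probe in its reference transcript, with bars of 1 bead standard error, dashed lines at 1.6-fold and open circles where the probe was not detected on the TAT-Cre array. Probes of Dhx58 and Irf9 all lie below 0, and those of Irf1 pass 1.6-fold only at positions 1708 and 1985 in ΔCdk MEFs. Those of Irf3 lie within 1.6-fold, with the probe at position 955 above 0 on every TAT-Cre array.

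WT MEFs lay close to Rb-deleted MEFs. Against Rb-deleted MEFs, 0 of 9 members passed 1.6-fold in either direction, where 0.484% of all genes were lower and 0.539% higher. The log2 differences included 0.13 for Ddx58, -0.13 for Ifih1, -0.35 for Dhx58, -0.07 for Irf7, -0.09 for Irf9 and 0.03 for Stat2. Of the 9 differences, 3 exceeded 2 bead standard errors, those of Dhx58, Irf3 (-0.14) and Tlr3 (-0.29), the last detected on neither array. The share of all genes past 2 bead standard errors was not computed, so this count is no result about the members. Without a second culture, a small difference between these conditions cannot be told from none.

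The members were lower still in ΔCdk MEFs. ΔCdk and Rb-deleted MEFs differ in infection, in the Rb supplied and in the culture, which cannot be told apart. Against Rb-deleted MEFs 5 of 9 members were lower (1.95% of all genes) and none was higher (2.31%), and the 5 were Ifih1, Dhx58, Irf7, Irf9 and Stat2. Irf7 was 2.86-fold lower (log2 difference -1.52, bead standard error 0.17), Irf9 2.10-fold lower (-1.07, 0.08) and Stat2 2.09-fold lower (-1.06, 0.13). Dhx58 was at least 2.15-fold and Ifih1 at least 1.53-fold lower, so the Ifih1 bound does not reach the threshold. The call of Ifih1 was lost without background correction (4 members past, median -0.64 in place of -1.04), and those of Ifih1 and Stat2 with an offset of 50 (3 members, median -0.52). At these alternative settings 0.943% and 0.864% of all genes were lower. Ddx58 differed by -0.39 (0.09) and did not pass.

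ΔCdk and WT MEFs both carried a retrovirus and differ in the Rb it encodes. Each was also a separately infected culture with 1 array, so the form of Rb, the infection and the culture cannot be told apart. The same 5 members were lower in ΔCdk MEFs, against 1.01% of all genes, and none was higher (0.84%). Irf7 was 2.72-fold lower (-1.44, 0.17), rank 11 from the lowest of 12616 genes, Stat2 2.14-fold lower (-1.10, 0.14) and Irf9 1.98-fold lower (-0.98, 0.08). Dhx58 was at least 1.69-fold and Ifih1 at least 1.40-fold lower, so the Ifih1 bound is again below the threshold. Without background correction 3 members passed (Irf7, Irf9 and Stat2, median of all -0.55 in place of -0.91), with an offset of 50 only Irf7 and Irf9 (2 members, median -0.44), and at a 2-fold threshold 3 (Dhx58, Irf7 and Stat2). At these alternative settings 0.547%, 0.491% and 0.317% of all genes were lower. In the main analysis Ddx58 (-0.51), Irf1 (-0.23) and Irf3 (-0.16) did not pass.

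Most detected leukocyte markers were lower than parental on the 3 TAT-Cre arrays, and in ΔCdk MEFs they differed in both directions from WT and from Rb-deleted MEFs. Their summed intensity was 6555 in parental MEFs, against 3031 in Rb-deleted, 2723 in WT and 3268 in ΔCdk MEFs, and 12, 13 and 12 of the 14 detected markers were more than 1.6-fold lower than in parental MEFs, against 2.98%, 2.46% and 3.3% of all genes. Their part in the members' differences, against parental or between the TAT-Cre arrays, was not tested. In bulk samples fewer cells of a type and less RNA per cell cannot be told apart. Between ΔCdk and WT MEFs the median log2 difference of those 14 markers was 0.09, and 5 of them lay below 0. Past 1.6-fold 0 were lower and 2 higher, against 1.01% and 0.84% of all genes, and the median of the 9 members was -0.91. Between ΔCdk and Rb-deleted MEFs the markers' median was -0.14, and 8 of the 14 lay below 0. Past 1.6-fold 0 were lower and 1 higher, against 1.95% and 2.31% of all genes, and the members' median was -1.04. Fibroblast markers summed to 65337, 60045, 66542 and 58682. TAT-Cre treatment, loss of Rb and the culture itself cannot be told apart in the comparison of Rb-deleted with parental MEFs. For WT and ΔCdk MEFs, the retrovirus and the Rb it encodes are added to these and cannot be told apart from them either.

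Adaptors and kinases that work beside or below the sensors differed less from parental than the members. Of 35 sensing adaptors and kinases, 30 were detected, and 4, 1 and 5 were lower than parental in Rb-deleted, WT and ΔCdk MEFs with none higher, where 2.98%, 2.46% and 3.3% of all genes were lower, so the 1 in WT MEFs is near the background share. Their medians were -0.22, -0.18 and -0.23, and 22, 24 and 22 of the 30 lay below 0. Eif2ak2 (PKR), an interferon-induced kinase that senses double-stranded RNA, was lower on all 3 arrays (-1.04, -1.23 and -1.85). Trim25, the ubiquitin ligase that activates RIG-I, gave -0.73, -0.58 and -1.09. Unc93b1, which carries endosomal Toll-like receptors, gave -0.69, -0.66 and -0.83. Tlr7 and Zc3hav1 were the other 2 in ΔCdk MEFs, where neither was detected and the bounds were 1.46-fold and 1.36-fold. Mavs and Tbk1, named for their place in the pathway after their values were seen, gave 0.19, 0.17 and 0.32, and -0.12, -0.17 and -0.17. The DNA sensor cGAS (Mb21d1), named in the same way, stood at 0.59, -0.04 and 0.15.

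The probes of the 3 interferon genes looked up, Ifnb1, Ifna2 and Ifna4, lay at background on all 4 arrays, with intensities of 30.4 to 47.2, and so did that of the receptor chain Ifnar1. A probe at background does not show that its gene is silent, and other type I interferon genes were not looked up. Of 22 receptors, kinases, other STATs and negative regulators, 15 were detected, and 2, 2 and 3 were lower, against the same shares of all genes. Their medians were -0.26, -0.31 and -0.34, and 14, 15 and 14 of the 15 lay below 0. The lower genes were Usp18, an interferon-induced brake on the receptor (-2.28, -2.21 and -3.98), the phosphatase Ptpn6, a gene typical of leukocytes (-0.76, -1.01 and -1.01), and, in ΔCdk MEFs, Stat5a (-0.73). Jak1 (-0.51, -0.48 and -0.53) and Tyk2 (-0.31, -0.28 and -0.34), named after their values were seen, did not pass. Of 7 other IRF genes, 5 were detected. Irf5 was lower on all 3 arrays (-0.82, -0.83 and -1.03), and Irf8 passed in WT MEFs (-0.68), where it was not detected.

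**Figure D4:**
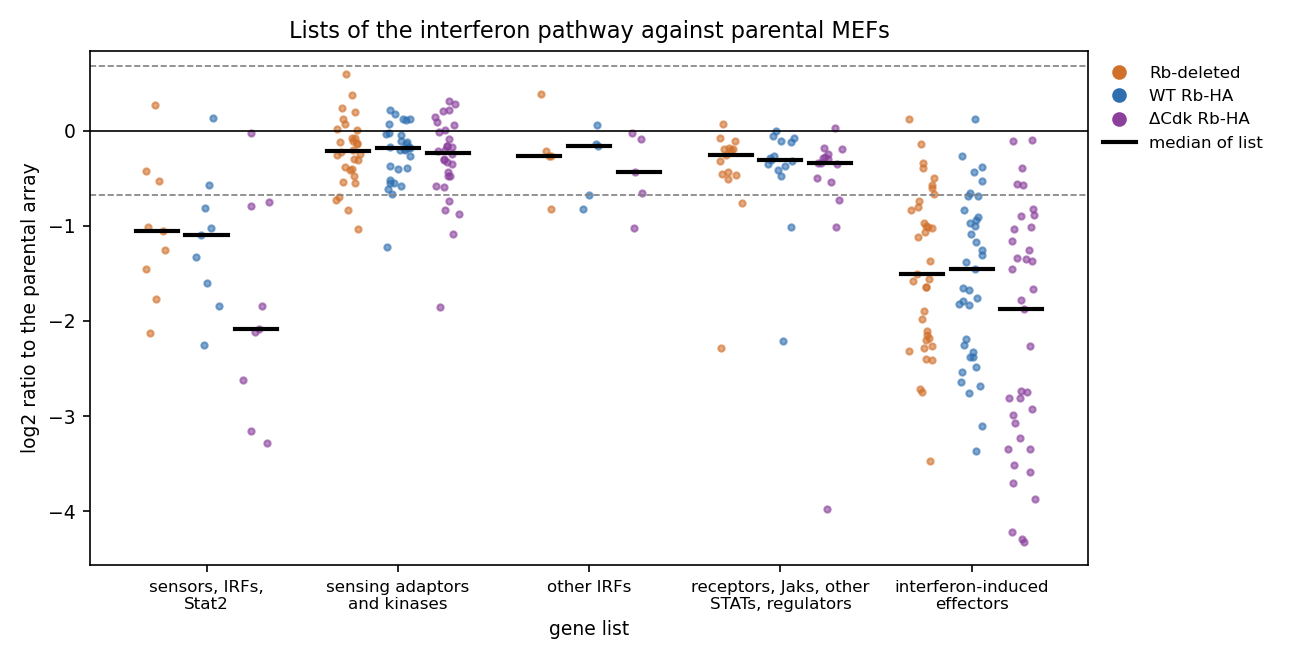
Log2 ratio to the parental array of every detected gene in the member list and the 4 pathway lists on the 3 TAT-Cre arrays, with the list median as a bar and dashed lines at 1.6-fold. Members and effectors lie mostly below the lower line, whereas adaptors and kinases and the receptor list have medians of -0.34 to -0.18, below 0 but within 1.6-fold.

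Interferon-induced effectors, the genes that ISGF3 is known to switch on, went down with the members. Of 45 listed, 37 were detected, and 29, 31 and 32 were lower than parental in Rb-deleted, WT and ΔCdk MEFs, against 2.98%, 2.46% and 3.3% of all genes, with none higher and medians of -1.51, -1.45 and -1.88. Ifit3, an inhibitor of viral RNA translation, gave -2.75, -2.64 and -4.30. The chemokine Cxcl10 gave -3.47 and -3.11 and was at least 17.8-fold lower in ΔCdk MEFs. Oasl2 (-2.26, -2.48 and -4.21), Cmpk2 (-2.15, -2.68 and -3.70) and the GTPase Gbp3 (-2.40, -2.33 and -3.59) were also lowest in ΔCdk MEFs. Rsad2 (viperin) was the 1 effector of 37 past 1.6-fold between WT and Rb-deleted MEFs, at -1.05. In ΔCdk MEFs 18 of the 37 effectors were lower than in Rb-deleted MEFs (median -0.62), against 1.95% of all genes. Against WT MEFs 14 of the 37 were lower (median -0.47), where 1.01% of all genes were.

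The genes nearest to each member were found by the root mean square distance between their 3 log2 ratios to parental, among 8654 other genes detected on all 4 arrays, leaving out symbols that begin with LOC or end in Rik. Irf7 lay nearest to Iigp2 (0.15) and Mx2 (0.17), both interferon-induced GTPases. Irf9 lay nearest to Ifi35 (0.14) and Eif2ak2 (0.15), and Stat2 to the same pair (0.15 and 0.20). For Ddx58 they were Lmo2 (0.13) and Gpr84 (0.14), and for Irf1 Lama5 (0.02) and Osmr (0.02). The distance is on the log2 scale and rests on 3 ratios that share 1 array.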

How the data were processed

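Total RNA of 4 cultures was hybridised to MouseWG-6 v2 BeadChips, 1 array per condition, and groups were taken from the sample titles. The authors deposited bead-averaged probe intensity on a linear scale, not normalized between arrays. The deposited table also gives a detection p-value, the bead standard error and the bead count per probe (median 44 on each array). How the authors summarised the beads is not given in the sources used here. The release and doxorubicin times come from the paper's text, not the labels.

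Normexp background correction was run in limma 3.58.1 (R 4.3.3), which estimated the background of each array through its detection p-values, and 16 was added as offset, which pulls ratios of dim probes toward 0. Quantile normalization across the 4 arrays and a log2 transformation followed. Genes entered the analysis when any array had a detection p-value under 0.01 (17746 probes, 12616 genes), each by its brightest probe. Bead standard errors were carried through each array's mapping, with a median of 0.09 for a log2 ratio. They cover error within an array only, and the number of arrays limits the precision. Python 3.11.15, numpy 2.4.6, pandas 2.3.3 and matplotlib 3.10.9 were used. The calculation was tested on simulated data. Symbols of 40 probes had turned into dates, and 34 were restored from the gene number. List genes absent by name were matched through RefSeq synonyms (6 effectors, Cmpk2 as Tyki among them, and 3 adaptors, with Mavs as D430028G21Rik and cGAS as E330016A19Rik). Genome positions in the deposited table mix builds, so transcript positions and RefSeq coordinates are given instead.

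Members and gene lists were chosen with earlier results of these data known. Named genes are all members at every probe, up to 6 genes per pathway list past 1.6-fold against parental (the largest changes), Rb1 and the 2 genes nearest to each member detected on all 4 arrays and past 1.6-fold. Outside this rule, Mavs, Tbk1, Mb21d1, Jak1, Tyk2 and the undetected Ifnb1, Ifna2, Ifna4, Ifnar1, Ptprc, Itgam, Fcer1g and Lyz1 were named after their values were seen. One pathway gene is not reported here and was left out of its list. Alternatives changed the background correction, offset, normalization, detection filter, probe choice and fold threshold.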

Additional observations from a re-analysis of the deposited data

How the results depend on the processing

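In all, 10 alternatives were run. No called difference of a member reversed. Of 414 recomputed member differences, 411 kept their sign. The exceptions were Irf1 and Irf9 between WT and Rb-deleted MEFs and Irf3 between ΔCdk and parental MEFs, all with the mean over detected probes. Part of the 414 could not change. Both detection filters left the value of every member they kept as it was, and the probe mean did so for members with 1 probe. Ddx58, Irf7, Irf9 and Stat2 passed the threshold against parental in all 3 comparisons under every alternative, and Ifih1 and Dhx58 under every one that kept them. The size and the counts against ΔCdk MEFs depended most on background and offset. The offset and the lack of background correction act on dim probes by their construction. Without background correction the members' median was -1.66 (ΔCdk against parental), -0.64 (against Rb-deleted) and -0.55 (against WT, 3 members past). With an offset of 50 these were -1.60, -0.52 (3 members) and -0.44 (2 members). The shares of all genes lower beside these 3 counts were, in order, 0.547%, 0.864% and 0.491%. With an offset of 1 the median was -1.40 in WT and -2.24 in ΔCdk MEFs against parental. At that offset 1 member (Tlr3, detected on neither array) and 3 other pathway genes passed between WT and Rb-deleted MEFs, where 2.92% of all genes were lower. The 4 pathway lists held 30, 5, 15 and 37 detected genes, so those 3 are near the share of all genes. With detection on all 4 arrays, which drops Ifih1, Dhx58 and Tlr3, 6 members remained. Of these 6, 4 passed in WT and 5 in ΔCdk MEFs against parental, where 1.99% and 2.89% of all genes were lower. In ΔCdk MEFs 3 passed against Rb-deleted (median -0.72, 1.87% of all genes lower) and 3 against WT MEFs (0.932%). With the mean over probes the median was -1.84 in ΔCdk MEFs against parental, and Irf1 no longer passed there (-0.62). At 1.5-fold 2 genes of the 4 pathway lists passed between WT and Rb-deleted MEFs, where 0.935% of all genes were lower. At 2-fold 11 genes of those lists passed between ΔCdk and Rb-deleted MEFs, and 3 members between ΔCdk and WT MEFs, where 0.539% and 0.317% of all genes were lower. The cause of the probe-mean differences was not tested. Probes near background limit Ifih1, Dhx58 and Tlr3. No paired analysis was possible because each condition has 1 array.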
